A study of Mus musculus with 8 samples.

Results

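Intermediate filament transcripts were followed in RNA sequencing of primary mouse cortical neuron cultures treated with hemin, 4-OI or both. The 8 genes are Nefl, Nefm, Nefh, Ina, Prph, Vim, Nes and Synm, taken by symbol from a table of 19417 genes, each with 1 entry. They were chosen from readings of these same libraries, because FPKM values of neurofilament transcripts were higher with hemin than with DMSO while other neuronal transcripts were lower, so their values in that comparison are a description with no test. All 8 passed the filter on low values (2 or more libraries reaching an FPKM of 1), and each would have passed on the 4 libraries without hemin alone.

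The cultures came from C57BL/6 mice and every group was treated for 24 h. The 4 groups were DMSO (the vehicle), 4-OI at 10 µM, hemin at 50 µM, and hemin at 50 µM together with 4-OI at 10 µM, with 2 libraries each. Hemin is the iron porphyrin set free when hemoglobin breaks down, and 4-OI is 4-octyl itaconate, a cell-permeable form of the metabolite itaconate. The labels do not say whether the libraries of a group came from separate cultures or animals, so p-values measure only the spread between these libraries, which may be technical. The sources used here give neither the age of the donor mice nor the days in culture.

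Intermediate filaments are rope-like cytoskeletal polymers whose subunits differ between cell types. Mature axons carry neurofilaments built on the light subunit NF-L (Nefl), which co-assembles with the medium and heavy subunits NF-M (Nefm) and NF-H (Nefh) and with alpha-internexin (Ina), a subunit that is abundant early in neuronal development. Peripherin (Prph) is the form typical of peripheral neurons. Vimentin (Vim), with its partners nestin (Nes) and synemin (Synm), belongs to radial glia, astrocytes, fibroblasts and other dividing or non-neuronal cells.

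The labelled cell type was matched by its markers, with all 8 neuron markers and all 8 cortical excitatory neuron markers at a mean of 1 FPKM or more in DMSO. So were 12 of 12 astrocyte markers, 9 of 10 radial glia and progenitor markers, 7 of 12 fibroblast and meningeal markers, 9 of 12 microglia markers, 4 of 10 oligodendrocyte markers and 1 of 10 endothelial and pericyte markers. Estimated depth ran from 9040000 to 10580000 fragments per library. One library stood apart, since summed astrocyte markers in Hemin replicate 1 were 5.08 times the DMSO mean against 2.02 times in Hemin replicate 2, and 2.08 and 2.15 times in the Hemin+4-OI libraries. In bulk RNA of this kind, fewer cells of a type and less RNA per cell cannot be told apart.

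The light subunit Nefl was at 16.6 and 17.5 FPKM (fragments per kilobase of transcript, scaled to the library size) in the DMSO libraries, 20.4 and 16.8 in the 4-OI libraries, 34.0 and 45.0 in the hemin libraries and 52.7 and 52.4 in the Hemin+4-OI libraries. Every library with hemin lay above every library without it. The medium subunit Nefm was at 7.49 and 7.3 FPKM in the DMSO libraries, 7.42 and 7.62 in the 4-OI libraries, 20.7 and 26.4 in the hemin libraries and 27.9 and 28.8 in the Hemin+4-OI libraries. The ranges with and without hemin again lay far apart. The heavy subunit Nefh, the lowest of the 3 on this per-length scale, was at 1.43 and 1.5 FPKM in the DMSO libraries, 1.37 and 1.25 in the 4-OI libraries, 4.49 and 8.13 in the hemin libraries and 6.36 and 6.72 in the Hemin+4-OI libraries. In hemin without 4-OI, Hemin replicate 1 had the lower value for each of these 3 subunits.

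Alpha-internexin went the other way. Ina was at 128.2 and 124.6 FPKM in the DMSO libraries, 124.5 and 120.2 in the 4-OI libraries, 74.3 and 90.7 in the hemin libraries and 89.7 and 93.9 in the Hemin+4-OI libraries, so all 4 libraries with hemin lay below all 4 without it. It remained the most abundant of the 4 subunits of central neurons in every library. Peripherin was near the filter, at 1.34 and 0.68 FPKM in the DMSO libraries, 1.08 and 1.07 in the 4-OI libraries, 1.90 and 0.91 in the hemin libraries and 1.03 and 0.96 in the Hemin+4-OI libraries, and its groups overlapped.

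**Figure D1:**
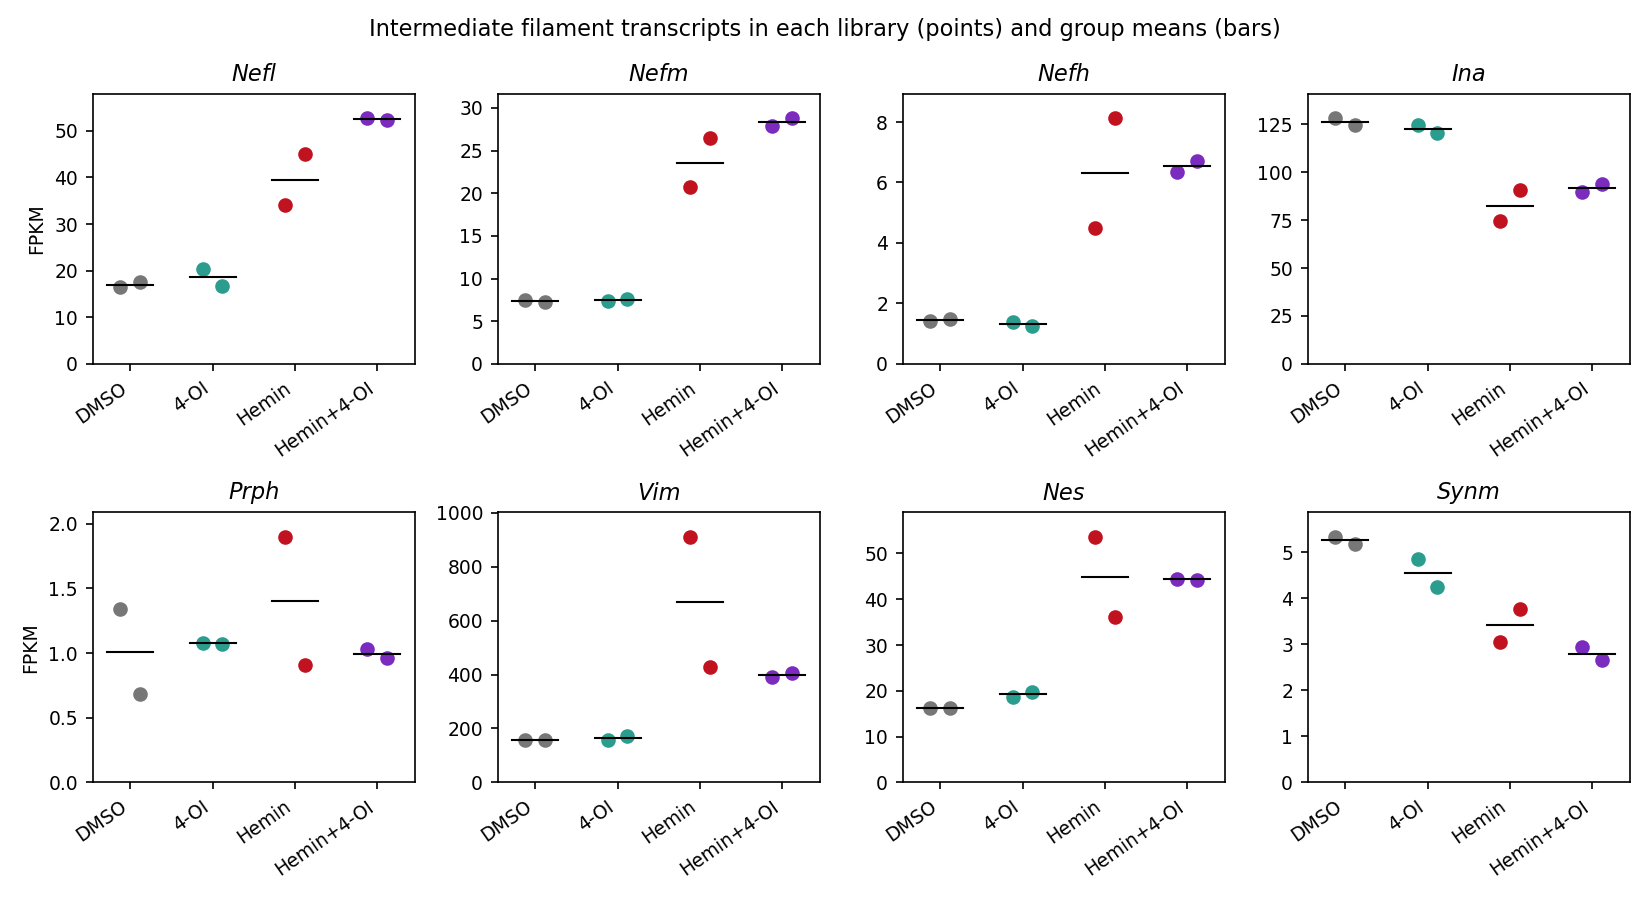
FPKM of the 8 intermediate filament genes (1 panel per gene, linear axis from 0) in the 4 groups, with a point per library and a bar at the group mean. Nefl, Nefm, Nefh, Vim and Nes are higher in every library with hemin, Ina and Synm are lower in every library with hemin, and Prph overlaps.

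Vimentin was the most abundant of the 8 genes in all 8 libraries. Vim was at 157.8 and 157.7 FPKM in the DMSO libraries, 158.4 and 172.6 in the 4-OI libraries, 911.5 and 428.2 in the hemin libraries and 392.1 and 405.1 in the Hemin+4-OI libraries. The value in Hemin replicate 1 was 2.13 times that in Hemin replicate 2, the reverse of the order seen for Nefl, Nefm and Nefh. Nestin, the filament protein of neural progenitors, was at 16.4 and 16.2 FPKM in the DMSO libraries, 18.8 and 19.8 in the 4-OI libraries, 53.7 and 36.2 in the hemin libraries and 44.5 and 44.2 in the Hemin+4-OI libraries. Nes thus shared the order of Vim between the hemin libraries, with a smaller ratio of 1.48. Synemin, a large partner that cannot form filaments alone, was at 5.34 and 5.17 FPKM in the DMSO libraries, 4.85 and 4.25 in the 4-OI libraries, 3.06 and 3.76 in the hemin libraries and 2.94 and 2.65 in the Hemin+4-OI libraries. Synm was therefore lower in each library with hemin although its partner Vim was higher there. Among all genes tested, 40.8% were higher and 26.7% lower in all 4 libraries with hemin than in all 4 without.

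Against DMSO, group means with hemin were 2.32 times as high for Nefl, 3.19 for Nefm, 4.31 for Nefh, 4.25 for Vim and 2.76 for Nes, and 0.653 times for Ina and 0.649 for Synm. On the log2(FPKM + 1) scale the differences were 1.15 for Nefl, 1.54 for Nefm, 1.52 for Nefh, 1.98 for Vim, 1.38 for Nes, −0.62 for Ina, −0.51 for Synm and 0.25 for Prph. The log2 scale understates the difference of low genes such as Nefh. This is the comparison that chose the genes, and across all genes tested it called 61.3% (38.7% higher and 22.6% lower, at a limma adjusted p below 0.05). Of these calls 63.1% were higher, against 48.8% when libraries were scaled by the median of ratios and 48.0% when quantile-normalized. The level of Vim depended on 1 library, with a log2 difference of 1.43 without Hemin replicate 1 and 2.52 without Hemin replicate 2.

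Hemin plus 4-OI against 4-OI gives the difference with hemin in the other 4 libraries. The genes were chosen with that difference known in general and the choice covered all 4 groups. The p-values here therefore set its size against the spread between libraries, pooled over all 4 groups. They are not independent evidence of its direction or size. There the 3 neurofilament subunits rose, Nefl from 18.6 ± 2.52 to 52.6 ± 0.226 FPKM (SD, n = 2), Nefm from 7.52 ± 0.141 to 28.4 ± 0.629 and Nefh from 1.31 ± 0.0849 to 6.54 ± 0.255. Their log2 differences were 1.46 ± 0.15 (SE, limma adjusted p = 0.000114) for Nefl, 1.78 ± 0.13 (3.3e-05) for Nefm and 1.71 ± 0.23 (0.000463) for Nefh. Vim rose from 165.5 ± 10.0 to 398.6 ± 9.19 FPKM (SD, n = 2), by 1.26 ± 0.28 on the log2 scale (limma adjusted p = 0.00547). Nes rose from 19.3 ± 0.757 to 44.3 ± 0.233 FPKM (SD, n = 2), by 1.16 ± 0.16 (limma adjusted p = 0.000574). In all, 5 of the 8 genes rose and 2 fell, where 57.5% of all genes tested were called (33.3% higher and 24.2% lower). The median log2 difference was 1.21 over the 8 genes and 0.13 over all genes tested. Because the choice of genes drew on the difference with hemin, these counts and this median are a description only.

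Ina and Synm fell in the same comparison. Ina went from 122.3 ± 2.99 to 91.8 ± 3.0 FPKM (SD, n = 2), with a log2 difference of −0.41 ± 0.11 (limma adjusted p = 0.0109). Synm went from 4.55 ± 0.424 to 2.80 ± 0.205 FPKM (SD, n = 2), with −0.55 ± 0.15 (limma adjusted p = 0.0156). Both missed the threshold in fits with 1 library fewer, with differences of similar size. Without 4-OI replicate 1 the log2 differences were −0.39 for Ina and −0.47 for Synm (limma adjusted p = 0.0684 and 0.0951), and without Hemin+4-OI replicate 1 they were −0.38 and −0.60 (limma adjusted p = 0.0776 and 0.0547). Synm was at −0.49 without Hemin+4-OI replicate 2 (limma adjusted p = 0.0966). Prph had −0.06 ± 0.24 (95% interval −0.61 to 0.50, limma adjusted p = 0.855), which leaves changes of about that size in either direction possible. This interval uses the spread pooled over all 4 groups. The compared pairs lay close together (1.08 and 1.07, 1.03 and 0.96 FPKM). The DMSO pair (1.34 and 0.68) and the hemin pair (1.90 and 0.91) lay further apart. With median-of-ratios scaling the share of higher calls among all genes moved from 57.9% to 47.8% and the median of all genes from 0.13 to −0.004, while the 7 called genes kept their direction, with Nefl at 1.31, Nefm at 1.64, Nefh at 1.59, Vim at 1.11, Nes at 1.01, Ina at −0.57 and Synm at −0.67.

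**Figure D2:**
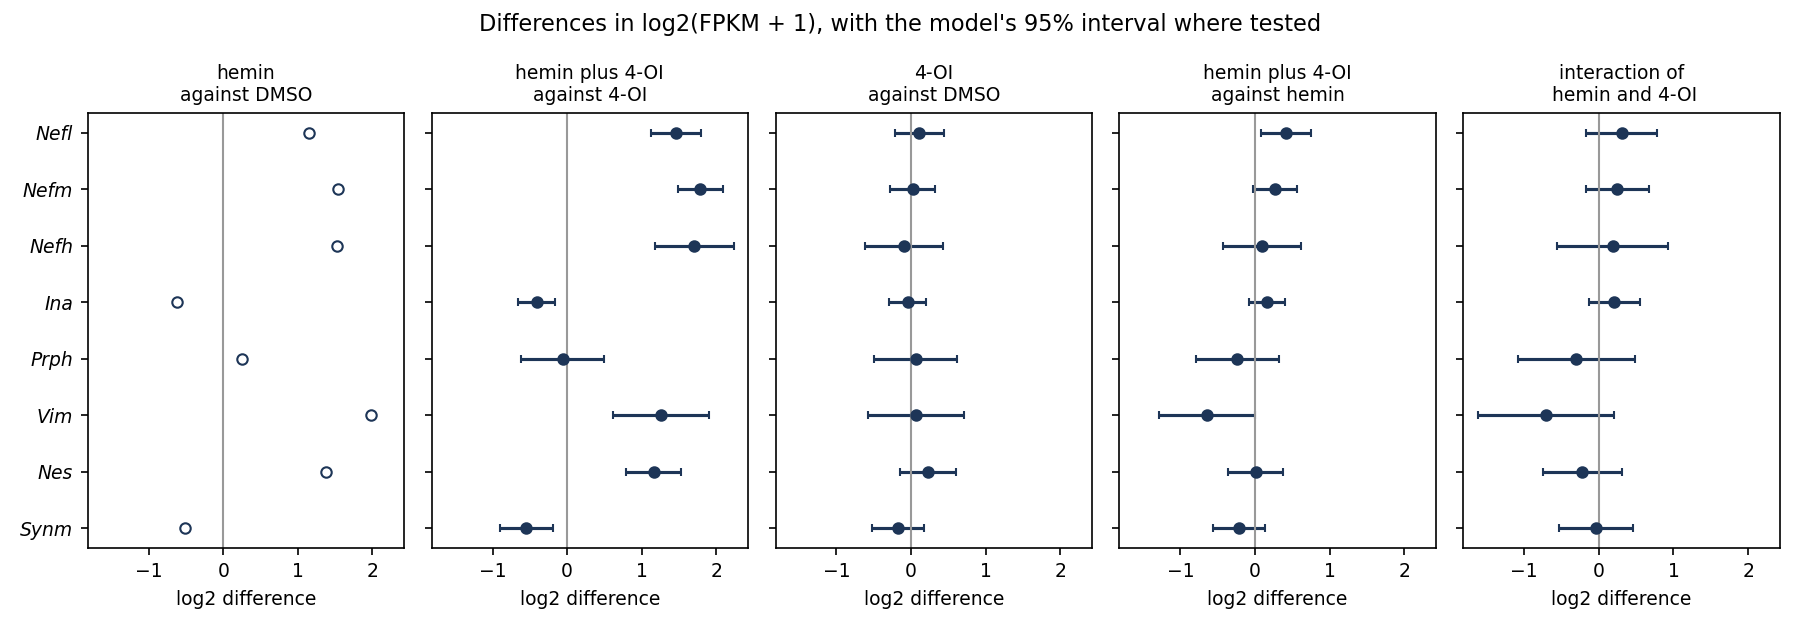
Difference in log2(FPKM + 1) (x axis) for each of the 8 genes (y axis) in the 5 comparisons, with the 95% interval of the limma model in the 4 that were tested and open points without an interval in hemin against DMSO, which chose the genes. Nefl, Nefm, Nefh, Vim and Nes lie above 0 and Ina and Synm below 0 in both comparisons of hemin.

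The makeup of the neurofilament subunit pool differed with hemin. FPKM is scaled by transcript length, so the levels of Nefl, Nefm, Nefh and Ina can be added within a library. Ina made up 81.0% to 83.4% of that sum in the 4 libraries without hemin and 50.8% to 55.7% in the 4 with hemin. The share of Nefl was 10.8% to 13.3% without hemin and 25.5% to 29.8% with it. Nefm went from 4.83% to 5.22% of the sum without hemin to 15.5% to 15.8% with hemin, a range of less than 1 percentage point within either state. Nefh, the subunit added last in development, held 0.86% to 0.99% without hemin and 3.36% to 4.78% with it.

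The ratios between subunits also differed. Nefl exceeded Nefm by 2.20 to 2.74 times without hemin and by 1.65 to 1.89 times with it. Nefl exceeded Nefh by 11.6 to 14.9 times without hemin and by 5.53 to 8.29 times with it, but after quantile normalization these ranges overlapped, at 8.90 and 8.98 in the DMSO libraries and 9.27 in Hemin replicate 1. Ina exceeded Nefl by 6.12 to 7.74 times without hemin and by 1.70 to 2.19 times with it. These ratios restate the values that chose the genes and carry no test. The summed level of the 4 subunits was 145.9 to 153.7 FPKM without hemin, 133.5 in Hemin replicate 1, 170.2 in Hemin replicate 2, and 176.7 and 181.9 in the Hemin+4-OI libraries.

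**Figure D3:**
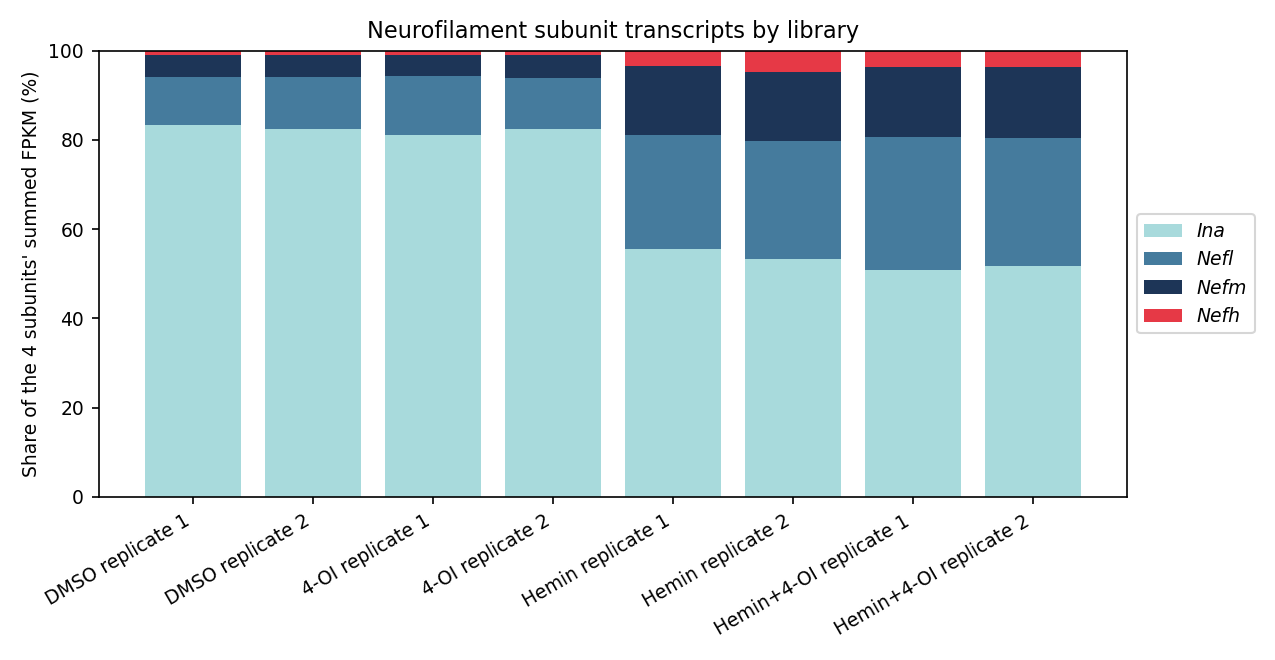
Stacked bars give the percentage of the summed FPKM of Ina, Nefl, Nefm and Nefh (y axis, 0 to 100%) in each of the 8 libraries (x axis). Ina holds 81.0% to 83.4% without hemin and 50.8% to 55.7% with hemin, and the shares of Nefl, Nefm and Nefh are each higher in the 4 libraries with hemin.

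Neuron markers were lower in the libraries where the neurofilament subunits were higher. The summed level of 8 neuron markers was 0.256 and 0.333 times the DMSO mean with hemin and 0.350 and 0.343 times with hemin plus 4-OI. Tubb3 alone made up 1179 FPKM of that sum in DMSO, which was 2386 and 2404 FPKM. The cortical excitatory neuron markers, a list without Tubb3, summed to 0.289 to 0.411 times the DMSO mean and the GABAergic neuron markers to 0.528 to 0.760 times. Neurod6 made up 83.0 FPKM of the cortical excitatory sum in DMSO, which was 228.5 and 235.8 FPKM. Its mean was 9.22 FPKM with hemin and 11.3 with hemin plus 4-OI. Against the sum of the 8 neuron markers, both taken relative to DMSO, Nefl was 7.81 to 8.97 times as high in the 4 libraries with hemin, Nefm 10.7 to 11.3 times and Nefh 12 to 16.7 times, and Ina 2.03 to 2.30 times. These ratios restate the pattern that chose the genes and carry no test. Their size depended on Tubb3. Without it the sum of the other 7 markers was 0.449 to 0.626 times the DMSO mean, and against that sum Nefl was 4.38 to 5.05 times as high, Nefm 5.93 to 6.39 times, Nefh 6.83 to 9.21 times and Ina 1.13 to 1.31 times. Against the GABAergic neuron markers Nefl was 3.78 to 4.38 times as high and Ina 0.978 to 1.11 times. Of the 8 neuron markers 5 fell and 0 rose in hemin plus 4-OI against 4-OI, where 24.2% of all genes tested were lower and 33.3% higher. Of the 8 cortical excitatory neuron markers 5 fell and 1, Fezf2, rose (0.71 ± 0.15, limma adjusted p = 0.00405). Lower neuronal transcripts were part of that pattern, so the counts of markers that fell are not independent evidence of it. Within the hemin pair the library with the lower neuron marker sum, Hemin replicate 1, also had the lower Nefl, Nefm, Nefh and Ina.

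Of 28 pan-neuronal genes, a list that holds no neurofilament gene, 23 fell and 0 rose in hemin plus 4-OI against 4-OI (median −1.04, where the median of all genes was 0.13). Over all genes tested 24.2% were lower and 33.3% higher. Lower levels of other neuronal transcripts with hemin were part of the pattern that chose the intermediate filament genes. The counts and median of the pan-neuronal list are therefore a description only, and not independent evidence of that pattern. Tubb3, the beta-tubulin of neurons, fell by 3.83 ± 0.08 and Dcx, the doublecortin of young neurons, by 2.01 ± 0.24 on the log2 scale. The 5 that did not pass, chosen here after their values were seen, were Map2 (−0.22), Elavl2 (0.27), Elavl4 (−0.02), Snap25 (0.11) and Uchl1 (−0.11).

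Vim and Nes, like the glial and progenitor marker sums, were higher in the 4 libraries with hemin than in the DMSO libraries. In the 4-OI libraries Nes was at 1.15 and 1.22 times its DMSO mean. Radial glia and progenitor markers there summed to 0.922 and 0.931 times. Vim was at 5.78 times its DMSO mean in Hemin replicate 1 and at 2.71 in Hemin replicate 2, and at 2.49 and 2.57 in the Hemin+4-OI libraries, close to the astrocyte marker sums given above. Against that sum Vim was 1.14 to 1.34 times as high in the 4 libraries with hemin, and Nes 0.649 to 1.31 times. Radial glia and progenitor markers summed to 2.06 times the DMSO mean in Hemin replicate 1 and 1.16 to 1.17 times in the other 3 libraries with hemin. Fibroblast and meningeal markers summed to 3.63 times in Hemin replicate 1 and 2.23 to 2.39 times in the others, and proliferation genes to 2.65 and 1.48 to 1.56 times. Microglia and macrophage markers summed to 5.72 times in Hemin replicate 1 and 1.89 to 1.95 times in the others. Oligodendrocyte markers summed to 3.38 and 1.74 to 1.76 times. A pattern like that of Vim was thus not particular to the astrocyte sum. In hemin plus 4-OI against 4-OI, 9 of 12 astrocyte, 6 of 10 tested radial glia, 5 of 9 tested fibroblast and 8 of 12 proliferation genes rose and 0 fell, where 33.3% of all genes tested were higher. Of the other glial lists 3 of 7 tested oligodendrocyte and 1 of 11 tested microglia markers rose and 0 fell. Among the genes that rose were Sox9 of astrocytes (1.86 ± 0.13), Prom1 of progenitors (1.23 ± 0.17), Fn1, fibronectin (1.44 ± 0.11), and Mcm7 of DNA replication (1.16 ± 0.15). The part of these cells in the Vim and Nes values was not tested.

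**Figure D4:**
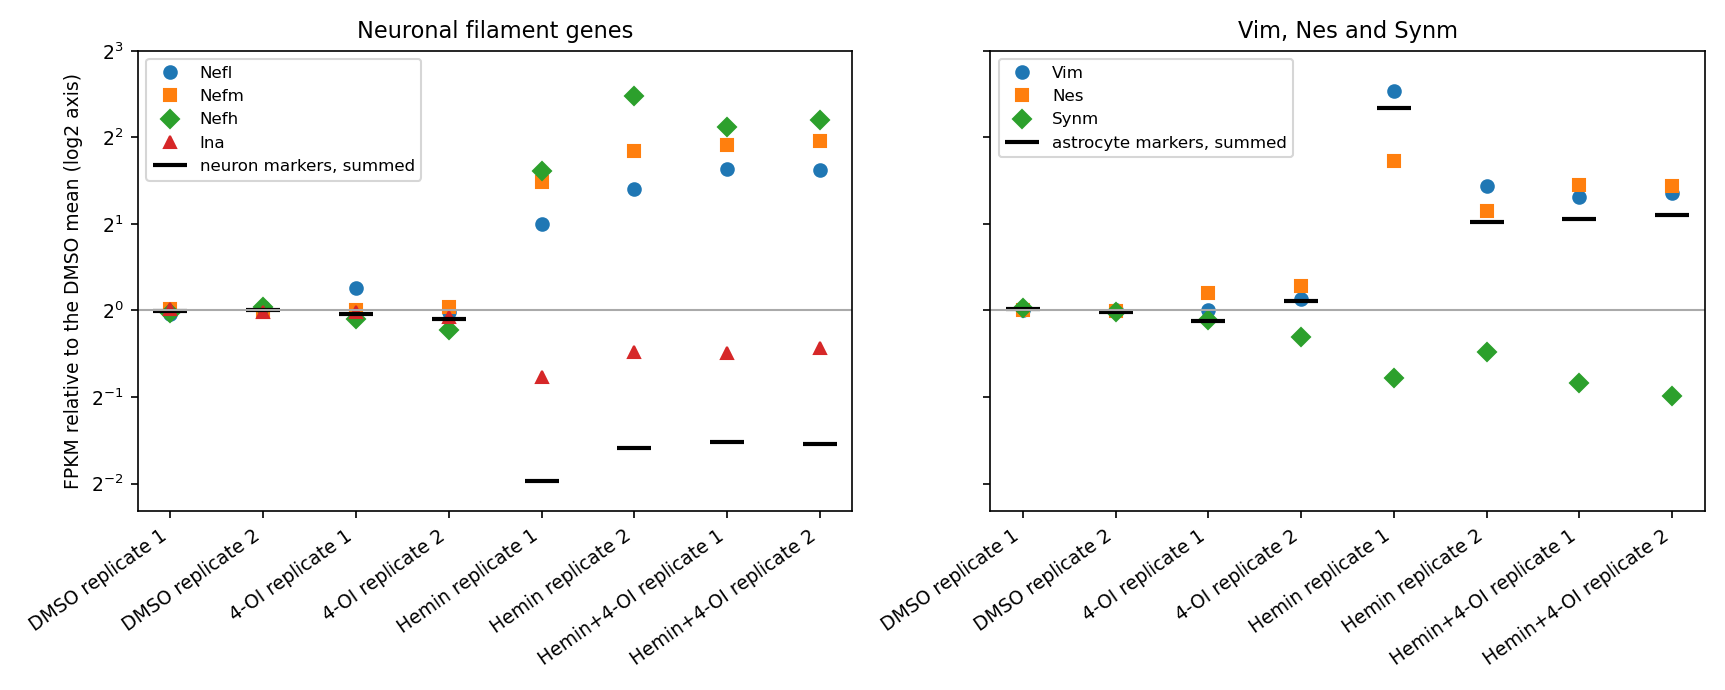
FPKM relative to the DMSO mean (log2 axis) in each of the 8 libraries, on the left for Nefl, Nefm, Nefh and Ina with the summed neuron markers as black bars, on the right for Vim, Nes and Synm with the summed astrocyte markers as black bars. Nefl, Nefm and Nefh lie above 1 while the neuron marker sum lies at 0.256 to 0.350 in the libraries with hemin, and Vim lies near the astrocyte marker sum, including at Hemin replicate 1.

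RefSeq promoter windows were matched by symbol for Ina, Nes, Prph, Synm and Vim, 5 of the 8 genes. Those of Vim and Nes, which rose, and of Ina, which fell, are shown for the 250 bases before the annotated start, 5′ to 3′ on the gene's strand. Capitals mark matches, on either strand, to the letters TATAAA of a core promoter element bound by TBP, to the letters CCAAT bound by NF-Y, or to the letters GGGCGG bound by Sp1.
Vim, GRCm38.p6 chr2:13574061-13574310, plus strand: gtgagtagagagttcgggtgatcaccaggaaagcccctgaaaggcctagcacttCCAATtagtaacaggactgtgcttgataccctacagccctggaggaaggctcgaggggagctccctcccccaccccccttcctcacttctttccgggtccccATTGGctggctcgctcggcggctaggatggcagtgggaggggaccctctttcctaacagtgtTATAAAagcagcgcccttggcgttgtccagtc
Nes, GRCm38.p6 chr3:87970843-87971092, plus strand: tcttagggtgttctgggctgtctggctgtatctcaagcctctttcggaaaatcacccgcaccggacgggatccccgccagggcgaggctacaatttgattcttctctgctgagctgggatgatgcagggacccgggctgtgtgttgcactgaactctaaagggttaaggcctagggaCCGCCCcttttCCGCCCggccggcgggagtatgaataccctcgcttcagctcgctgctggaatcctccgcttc
Ina, GRCm38.p6 chr19:47014431-47014680, plus strand: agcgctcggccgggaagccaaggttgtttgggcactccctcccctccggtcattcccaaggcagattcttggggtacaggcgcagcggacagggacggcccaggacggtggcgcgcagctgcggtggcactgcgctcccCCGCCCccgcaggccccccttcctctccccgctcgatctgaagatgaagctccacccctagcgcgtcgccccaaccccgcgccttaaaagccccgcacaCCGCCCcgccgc

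The Vim window held TATAAA 32 bases before the start and 2 matches to the NF-Y letters. The Nes and Ina windows held 2 matches each to the Sp1 letters. Of 32851 RefSeq windows of the same length 12.4% held TATAAA, 33.8% CCAAT and 32.7% GGGCGG. The window of Prph held TATAAA 31 bases before the start and 1 match to the Sp1 letters, and that of Synm 1 match to the NF-Y letters. Letters of stress-responsive motifs were also searched on both strands: GAANNTTC (heat shock element core, in 6.7% of windows), TGACNNNGC (antioxidant response element core, 10.2%), TGANTCA (AP-1 site, 6.7%), TGACGTCA (cyclic AMP response element, 1.5%) and TGATGNAA (ATF4 element core, 3.5%). They were matched in 0 of the 5 windows, which says only that these letters are not in these bases. Nefl and Nefm are next to each other among the protein-coding genes of the RefSeq annotation (GRCm38.p6).

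Other intermediate filament genes were mostly low. Of 18 on the list 17 were in the table and 8 were tested, and in hemin plus 4-OI against 4-OI 3 of these 8 rose and 1 fell (median 0.18), near the shares of all genes tested (33.3% higher and 24.2% lower). Lmna, which encodes the nuclear lamins A and C, rose by 2.37 ± 0.12 (limma adjusted p = 8.72e-06), from 15.9 and 14.6 FPKM with 4-OI to 83.2 in both Hemin+4-OI libraries. Unlike Vim, its hemin libraries were nearly equal, at 72.2 and 71.9 FPKM. Gfap, the filament protein of astrocytes, rose by 1.1 ± 0.39 (limma adjusted p = 0.0396), and its hemin libraries stood at 367.6 and 125.1 FPKM, with the same one high as for Vim. Lmnb2, a B-type lamin, fell by 0.64 ± 0.20 (limma adjusted p = 0.0249).

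Genes that link, move, modify or remove intermediate filaments went in both directions. Of 34 tested, 8 rose and 16 fell in hemin plus 4-OI against 4-OI (median −0.27). Among all genes tested 33.3% were higher and 24.2% lower there. The largest rises among those above 5 FPKM were the small heat shock protein Hspb1 (2.87 ± 0.28) and its co-chaperone partner Bag3 (2.36 ± 0.22). The largest falls were Cdk5r1, the p35 activator of the neurofilament kinase Cdk5 (−2.20 ± 0.16), and Kif5a, a kinesin motor that carries neurofilaments (−1.62 ± 0.17). Chosen after its values were seen, Plec, the cytolinker plectin, rose by 1.06 ± 0.20 (limma adjusted p = 0.00247).

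Among genes of the other cytoskeletal systems, 5 of 24 microtubule genes rose and 15 fell (median −0.84), with Tubb6 (1.40 ± 0.24) and Kif21a (0.85 ± 0.14) highest and Tubb2b (−2.27 ± 0.18) and Tubb4a (−2.16 ± 0.10) lowest. Over all genes tested 33.3% were higher and 24.2% lower in hemin plus 4-OI against 4-OI. Of 24 actin cytoskeleton genes 8 rose and 7 fell (median −0.002), near the shares of all genes tested, from Ezr, a membrane linker (1.99 ± 0.12), and Tpm4, a tropomyosin (1.38 ± 0.10), to Actg1 (−1.40 ± 0.13) and Actb (−1.07 ± 0.14), the cytoplasmic actins.

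**Figure D5:**
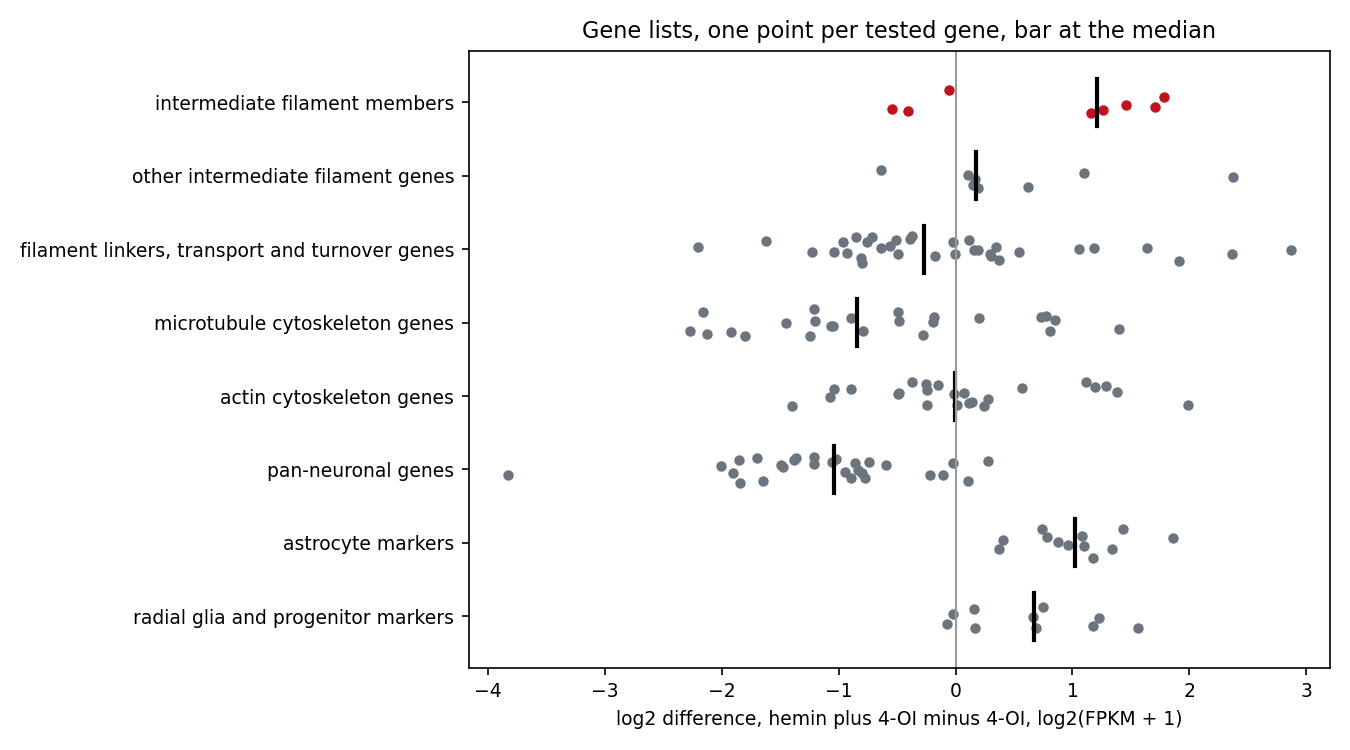
Difference in log2(FPKM + 1) between hemin plus 4-OI and 4-OI (x axis) for every tested gene of 8 lists (y axis), with a black bar at each list's median. The 8 intermediate filament genes (red) have a median of 1.21, the pan-neuronal genes −1.04, the microtubule genes −0.84 and the astrocyte markers 1.02. The choice of the 8 genes drew on higher neurofilament and lower other neuronal transcripts with hemin. The distance between the medians of those lists is therefore no test.

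The genes with patterns most like these were found by the root-mean-square difference between log2(FPKM + 1) profiles over the 8 libraries, each centred on its own mean, among 13010 other named genes. Nearest to Nefl were Sde2 (0.084), Zfp330 (0.088), Atf1 (0.089), Bbc3 (0.093) and Cars (0.094), against 0.682 for the profile of Nefl itself. Nearest to Nefm were Akap12 (0.06), Gorab (0.073), and Slc6a9, Eif2s2 and Jade3 (each 0.079), against 0.841 for Nefm itself. Nearest to Nefh were Chrm4 (0.065), Slc30a1 (0.067), Btn2a2 (0.083), Rc3h1 (0.084) and Tet2 (0.089). Nefh ranked 78th for likeness to Nefm and Nefl ranked 328th, so many genes matched Nefm more closely than its filament partners did.

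Vim had other neighbours. They were Cd63 (0.048), Prdx6 (0.053), Clu (0.059), Mlc1 (0.082) and Foxj1 (0.085), against 0.886 for Vim itself. Nes ranked 597th for likeness to Vim, and Nefm 1896th. These distances describe 8 libraries from the same 4 groups and carry no test.

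4-OI without hemin changed none of the 8 genes detectably. In 4-OI against DMSO limma called 0 of the 8 and 0% of all 13746 genes tested, with 179 at an unadjusted p below 0.05. The log2 differences ran from −0.17 ± 0.15 for Synm to 0.23 ± 0.16 for Nes, each with a limma adjusted p = 1. The 95% intervals were −0.22 to 0.45 for Nefl, −0.28 to 0.32 for Nefm, −0.62 to 0.43 for Nefh, −0.29 to 0.20 for Ina and −0.58 to 0.71 for Vim. They use a spread pooled over all 4 groups, so they also reflect the hemin libraries, where Vim was at 911.5 and 428.2 FPKM. Mean Nes FPKM was 16.3 ± 0.0849 in DMSO against 19.3 ± 0.757 in 4-OI libraries (SD, n = 2), and these groups did not overlap, nor did those of Synm, Nefh, Ina and Vim. Among all genes tested 35% did not overlap between these groups of 2. The comparisons of 4-OI and of hemin share libraries, so they are not independent of each other.

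Adding 4-OI to hemin asked whether 4-OI alters the levels seen with hemin. Limma again called 0 of the 8 and 0% of all genes, with 1209 genes at an unadjusted p below 0.05. Nefl was at 39.5 ± 7.73 FPKM with hemin and 52.6 ± 0.226 with both (SD, n = 2), a log2 difference of 0.42 ± 0.15 (limma adjusted p = 0.556, unadjusted 0.0202). Nefm had 0.27 ± 0.13 (limma adjusted p = 0.567). Vim was at 669.9 ± 341.7 and 398.6 ± 9.19 FPKM (SD, n = 2), with −0.65 ± 0.28 (limma adjusted p = 0.556, unadjusted 0.049). Nefh, Ina, Prph, Nes and Synm lay between −0.24 and 0.16.

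These values turned on which hemin library was used. Without Hemin replicate 2, leaving Hemin replicate 1 alone and assuming that it varies like the other groups, 6 of the 8 genes passed and 4471 genes in all. Nefl (0.61, limma adjusted p = 0.00562), Nefm (0.44, 0.0101), Nefh (0.46, 0.0488) and Ina (0.30, 0.009) were then higher with 4-OI, and Vim (−1.19, 0.000103) and Nes (−0.27, 0.0254) lower. Without Hemin replicate 1, 0 of the 8 and 3 genes in all passed, and the differences of Nefl, Nefm and Vim were 0.22, 0.10 and −0.10. The interaction of hemin and 4-OI, the change with 4-OI under hemin minus that without hemin, was called for 0 of the 8 and 0% of all genes by limma (689 at an unadjusted p below 0.05), with values from −0.71 ± 0.40 for Vim to 0.30 ± 0.21 for Nefl. Without Hemin replicate 2 it was called for Nefl, Nefm, Ina, Vim and Nes, 5 of the 8, and for 2568 genes in all. Without Hemin replicate 1 it was called for 0 of the 8 and 5 genes in all.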

How the data were processed

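RNA was sequenced from 8 libraries in 4 groups of 2. The authors deposited 1 table of FPKM values for 19417 genes with 2 decimals. The submitters' processing notes list Bowtie2, RSEM and mm8; tool versions and the annotation were not found in the labels. RefSeq tables of another build (GRCm38.p6) served for names, neighbours and promoter sequences.

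FPKM values carry no counts, so no count test was used. Values were tested as log2(FPKM + 1) for the 13746 genes reaching an FPKM of 1 in 2 or more libraries, with limma 3.58.1 in R 4.3.3 (a mean per group, all 8 libraries, eBayes with an intensity trend, two-sided, Benjamini-Hochberg over all genes tested, threshold 0.05). The spread of each gene was pooled over the 4 groups, so each p-value, SE and interval also reflects libraries outside its comparison. The procedure was tested on simulated data. Depth was estimated from the size of 1 fragment among low values, of which 76.1% to 83.3% lay within 0.15 of whole fragments. For the low gene Nefh this gave about 46 to 58 fragments per library without hemin.

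The members and lists were chosen with earlier results of these data known. All 8 members are named in every comparison, and from each other list at most the 2 largest rises and 2 largest falls past the threshold with a mean of at least 5 FPKM in the higher group. For likeness the 5 nearest genes are given, with unnamed gene models passed over. The counts of genes called and the differences of the 8 members were recomputed with the pseudocount at 0.1, with the filter dropped or raised to 5 FPKM, after conversion to TPM, after scaling by the median of ratios or by quantiles, with replicate number added as a block, with the compared groups fitted alone, and without each library in turn. Subunit shares and ratios were recomputed after quantile normalization only, and the ratios to neuron markers with other marker sums, chosen after seeing the data; list counts, other marker sums and likeness had no alternative. Tables and figures were made with Python 3.11.15, numpy 2.4.6, pandas 2.3.3 and matplotlib 3.10.9.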

Additional observations from a re-analysis of the deposited data

How the results depend on the processing

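In hemin plus 4-OI against 4-OI, 7 of the 8 genes passed under every setting that kept all libraries, and 5 to 7 when 1 library was left out, where Ina and Synm were the ones lost; fewer samples in the fit was part of that construction. The count over all genes was 5511 to 9900 without 1 library. The replicate number shared no clear signal (correlations of deviations −0.09 to 0.052), and with it as a replicate block 7699 genes and 7 of the 8 passed, with 0 of the 8 in the 3 other tested comparisons. With no filter, 2 genes passed in hemin plus 4-OI against hemin and 2 in the interaction. Leaving out 1 library gave 0 to 2 genes in 4-OI against DMSO, 0 to 4471 genes and 0 to 6 of the 8 in hemin plus 4-OI against hemin, and 0 to 2568 genes and 0 to 5 of the 8 in the interaction; the upper ends came without Hemin replicate 2, or for 4-OI against DMSO without either hemin library. Nes in hemin plus 4-OI against hemin went from 0.0079 to −0.27 there and was 0.29 without Hemin replicate 1. The cause was not tested. In hemin against DMSO 9 of 127 member values moved by more than the spread between replicates, among them Prph (−0.31 with quantile normalization) and Nefh (1.97 with a pseudocount of 0.1, 1.08 with quantile normalization). Prph did not pass the filter at 5 FPKM.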
